A study of Mus musculus with 30 samples.

Results

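Interferon gamma GTPases and 2 transcription factors that act on their genes were followed across E0771 tumors of lean, obese and formerly obese mice. The set holds 10 of the 19505 genes measured. These are the guanylate-binding proteins Gbp2, Gbp3, Gbp4 and Gbp7, the immunity-related GTPases Igtp, Iigp1, Irgm1 and Irgm2, and the factors Irf1 and Batf2. Members were chosen by gene symbol, with earlier results of these data known. The brightest probe set was kept for a symbol with several, and each of the 10 had a single probe set.

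Interferon gamma is released mainly by natural killer and T cells, and binds a receptor made of Ifngr1 and Ifngr2, which signals through the kinases Jak1 and Jak2. The signal acts on target genes through gamma-activated sites (GAS). Irf1 is one such target, and its product in turn binds interferon-stimulated response elements (ISRE). In mouse cells the effectors among the induced GTPases gather on the membranes around bacteria and parasites and break them open. Transcripts of the induced GTPases are widely read as a sign that cells have received interferon gamma.

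Expression was measured in 30 tumors from female C57BL/6NCrl mice, 6 tumors from each of 5 groups and 1 array per tumor. All mice of the DIO groups first became obese on a diet with 60% fat. DIO-CCR mice then lost weight by chronic calorie restriction, DIO-ICR mice by intermittent calorie restriction and DIO-VSG mice by vertical sleeve gastrectomy, an operation that removes most of the stomach, followed by a low-fat diet. DIO-HFD mice remained obese on the high-fat diet, and CON-LFD mice ate the control diet throughout and were never obese. Every mouse without the gastrectomy had a sham operation. E0771 cells, a mammary carcinoma line of C57BL/6 mice and so a single line in hosts of its own strain, were injected at 25 weeks of the study (4th fat pad), and each tumor was taken at its end. Levels are log2 values on one scale for all arrays, so a difference of 1 is a doubling. They do not rank the amounts of different genes, because probe sets differ in brightness. Tumors are named by group and a number that has no order.

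The arrays had medians between 6.41 and 6.79. Of the epithelial markers of a carcinoma, Krt8 had a median of 9.71 over the tumors, while Krt18, Krt19, Epcam and Cdh1 had medians between 3.85 and 5.02, and no detection call came with the values. Krt8 was higher in DIO-HFD than in CON-LFD tumors, at 10.85 ± 1.00 and 8.48 ± 1.16 (SD), a difference of 2.37 ± 0.56 (SE, limma adjusted p = 0.0296). Of 7 measured epithelial genes, Krt8 alone was higher there by sign and 6 were lower, with a median difference of -0.46. Genes of neighboring tissue were high in some tumors, and where that RNA came from was not tested. The mean of 6 lymph node genes was more than 1 above that of the median array in DIO-VSG 1, DIO-VSG 5 and DIO-HFD 5, and that of 7 muscle genes in DIO-CCR 3, DIO-VSG 3, DIO-VSG 4 and CON-LFD 5. By this rule alone they are called tumors with lymph node RNA and with muscle RNA below. DIO-VSG 5 (1.07) and DIO-CCR 3 (1.15) barely met it, and DIO-CCR 1 (0.97 for lymph node genes) barely missed it. By the same rule 7 adipocyte genes were high in DIO-CCR 3, DIO-CCR 5, DIO-ICR 1, DIO-ICR 5, DIO-ICR 6 and DIO-VSG 1. No fit left the tumors with adipocyte genes out as a set. In bulk tumors, fewer cells that respond and less RNA per responding cell cannot be told apart.

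Promoter sequence bears on these genes because the letters of both kinds of site are known. RefSeq promoters of build GRCm38.p6 (windows of 300 bases, most of them before a start site) were in hand for 7 of the 10 genes, with 9 start sites in all. The GAS was searched as TTCNNNGAA, which reads the same on both strands. The ISRE core was searched as GAAA, any 2 bases and GAAA again or, read from the other strand, TTTC, any 2 bases and TTTC again. A GAS was present in 4 of the 7 genes, an ISRE core in 6 and both in 3, while of all 32851 promoters 8.30% held a GAS, 3.44% an ISRE core and 0.454% both. The stretches around the matches follow, from 5′ to 3′ on the strand of the gene and upstream of its start, with matches in capitals:
Igtp: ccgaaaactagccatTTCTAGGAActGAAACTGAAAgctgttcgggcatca
Irgm2: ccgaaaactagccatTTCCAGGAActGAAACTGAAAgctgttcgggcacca
Irgm1: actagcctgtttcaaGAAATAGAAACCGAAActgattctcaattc
Gbp7: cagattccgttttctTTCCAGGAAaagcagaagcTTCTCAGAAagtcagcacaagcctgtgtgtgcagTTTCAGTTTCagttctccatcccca
Gbp3: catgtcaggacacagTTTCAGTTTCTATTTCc
Gbp2: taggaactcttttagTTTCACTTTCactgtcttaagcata
Irf1: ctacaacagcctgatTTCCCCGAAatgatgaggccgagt

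The Igtp stretch lies at chr11:58199496-58199546 and that of Irgm2 at chr11:58214887-58214937, both on the plus strand. In each a GAS was followed after 2 bases by an ISRE core, and over 79 bases aligned on the GAS the promoters shared 76. Irgm1 (chr11:48871421-48871465, minus strand) and Gbp3 (chr3:142559984-142560015, plus strand) each held 2 ISRE cores that overlap, read as 1 run of capitals. Gbp7 (chr3:142530215-142530307, plus strand) had 2 GAS and 1 ISRE core, Gbp2 (chr3:142620589-142620628, plus strand) had 1 ISRE core, and Irf1 (chr11:53769909-53769947, plus strand) had 1 GAS and no ISRE core. A second start site in the table for Gbp3 and another for Irf1 held neither. Promoters of Gbp4, Iigp1 and Batf2 were not analysed here.

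The lowest group mean of every one of the 10 genes was that of DIO-HFD tumors. The highest was that of DIO-ICR for 5 genes, CON-LFD for 4 and DIO-VSG for 1. Averaged over the 10 genes, DIO-CCR tumors had a log2 level of 12.39 ± 0.27, DIO-ICR tumors 12.66 ± 0.50, DIO-VSG tumors 12.63 ± 0.47, DIO-HFD tumors 11.80 ± 0.50 and CON-LFD tumors 12.75 ± 0.58 (SD, n = 6 each). A limma F-test over the 5 groups called Gbp4 (adjusted p = 0.0458) and no other member, the next being Batf2 (adjusted p = 0.0682), where 1.64% of all genes passed.

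**Figure D1:**
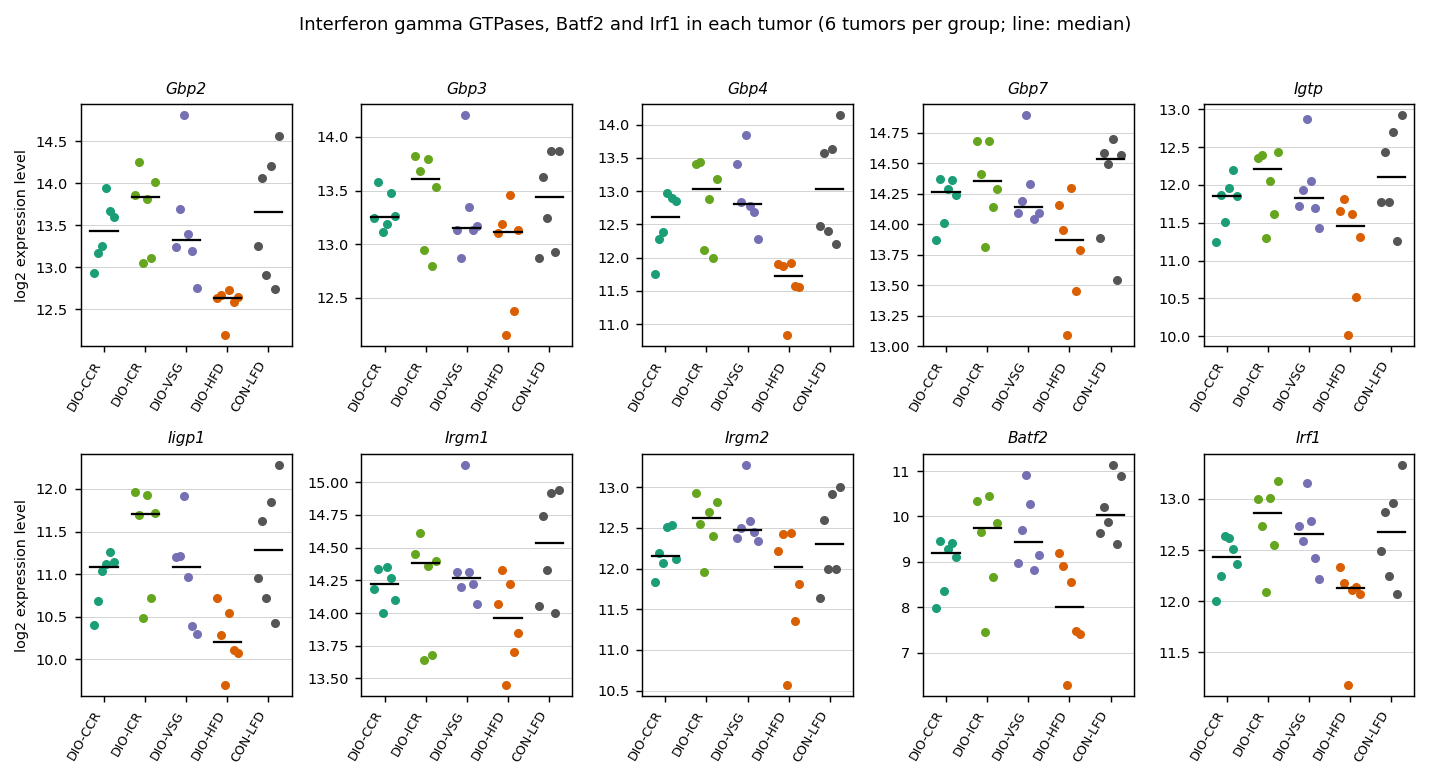
Log2 expression level of each of the 10 genes (panels, each with its own vertical axis) in every tumor, with 6 points per group and the group median as a line. DIO-HFD points sit lowest in most panels, and all 6 DIO-HFD values of Gbp2 lie between 12.19 and 12.73, below every other tumor.

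Relative to CON-LFD, DIO-HFD tumors had lower levels of all 10 genes, with Batf2 and Gbp4 past the test. The median difference of the members was -0.82, against 0.04 over all genes. Of all genes, 42.7% were lower in DIO-HFD by sign, 4.26% lower at an unadjusted p under 0.05 and 0.41% lower at an adjusted p under 0.05 in limma's test. Of the 10 members, 10 were lower by sign, 10 at the unadjusted level and 2 at the adjusted level. The members were chosen with earlier results known and vary together, so these are not 10 separate observations. DIO-HFD and CON-LFD tumors did not overlap for 3 members, Gbp2, Gbp4 and Batf2, with DIO-HFD below, as was true of 0.518% of genes. In this comparison obesity and diet cannot be told apart.

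Among the guanylate-binding proteins, large GTPases that assemble on pathogen vacuoles, Gbp4 had the largest difference. It ran from 11.75 to 12.97 in DIO-CCR tumors (median 12.62), from 12.00 to 13.44 in DIO-ICR (median 13.04), from 12.28 to 13.84 in DIO-VSG (median 12.80), from 10.83 to 11.92 in DIO-HFD (median 11.73) and from 12.21 to 14.14 in CON-LFD (median 13.03). Every tumor outside DIO-HFD, except the lowest of DIO-CCR, lay above all 6 of DIO-HFD. Gbp4 fell by 1.46 ± 0.33 in DIO-HFD relative to CON-LFD (SE, 2.75-fold lower, limma adjusted p = 0.0223). The call was lost without DIO-HFD 3 (adjusted p = 0.0605) and without CON-LFD 2, 4 or 6 (adjusted p = 0.0557, 0.0717 and 0.0505). It was also lost with these groups alone in the fit (adjusted p = 0.0599) and when the 3 tumors with lymph node RNA were left out (adjusted p = 0.0519).

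Gbp2, which in mice is recruited to vacuoles of intracellular parasites, separated DIO-HFD from the rest. It ran from 12.93 to 13.95 in DIO-CCR (median 13.43), from 13.05 to 14.25 in DIO-ICR (median 13.84), from 12.75 to 14.81 in DIO-VSG (median 13.32), from 12.19 to 12.73 in DIO-HFD (median 12.64) and from 12.74 to 14.56 in CON-LFD (median 13.66). The highest DIO-HFD tumor was thus below the lowest tumor of each other group, although by as little as 0.01 for CON-LFD. The difference of DIO-HFD from CON-LFD, -1.05 ± 0.30, did not pass (adjusted p = 0.0899). It passed with array weights (adjusted p = 0.0412), without the 4 tumors with muscle RNA (adjusted p = 0.0247), without CON-LFD 5 (adjusted p = 0.0442) and without DIO-VSG 3 (adjusted p = 0.0471). With 1 tumor left out it passed in 2 of 30 fits (adjusted p up to 0.232). CON-LFD 5, the lowest CON-LFD tumor for Gbp2, is also 1 of the 4 with muscle RNA, so these fits share its removal.

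Gbp3 and Gbp7, whose products belong to the same family, had smaller differences. Gbp3 ran from 13.11 to 13.58 in DIO-CCR, from 12.80 to 13.82 in DIO-ICR, from 12.87 to 14.20 in DIO-VSG, from 12.15 to 13.46 in DIO-HFD and from 12.87 to 13.87 in CON-LFD. For Gbp7 the ranges were 13.87 to 14.37, 13.81 to 14.68, 14.04 to 14.89, 13.09 to 14.30 and 13.54 to 14.70 in the same order of groups. All groups overlapped for both genes. The difference of DIO-HFD from CON-LFD was -0.50 ± 0.24 for Gbp3 and -0.50 ± 0.21 for Gbp7, neither past the test (adjusted p = 0.391 and 0.282 in limma).

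Of the immunity-related GTPases, Iigp1 (Irga6) is an effector that coats parasite vacuoles in mouse cells. It ran from 10.41 to 11.26 in DIO-CCR (median 11.08), from 10.49 to 11.96 in DIO-ICR (median 11.71), from 10.30 to 11.92 in DIO-VSG (median 11.09), from 9.70 to 10.72 in DIO-HFD (median 10.20) and from 10.43 to 12.28 in CON-LFD (median 11.29). In each of the other groups 4 of 6 tumors lay above all DIO-HFD tumors. The difference of DIO-HFD from CON-LFD was -1.07 ± 0.30 (adjusted p = 0.0888), and it passed with array weights (adjusted p = 0.0438), without the 4 tumors with muscle RNA (adjusted p = 0.0446) and without CON-LFD 5 (adjusted p = 0.0442). With 1 tumor left out it passed in 1 of 30 fits (adjusted p up to 0.224). CON-LFD 5, the lowest CON-LFD tumor for Iigp1, is also 1 of the 4 with muscle RNA.

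Igtp (Irgm3), Irgm1 and Irgm2 are the regulatory members, which sit on host membranes and keep the effectors from acting there. Igtp ran from 11.25 to 12.20 in DIO-CCR (median 11.86), from 11.30 to 12.44 in DIO-ICR (median 12.21), from 11.43 to 12.87 in DIO-VSG (median 11.83), from 10.01 to 11.81 in DIO-HFD (median 11.46) and from 11.26 to 12.92 in CON-LFD (median 12.10). DIO-HFD reached lower than any other group but overlapped all of them. Its difference from CON-LFD was -0.99 ± 0.30 (adjusted p = 0.119). Irgm1 and Irgm2, which also overlapped, differed by -0.56 ± 0.20 (adjusted p = 0.194) and by -0.56 ± 0.27 (adjusted p = 0.399), and DIO-HFD ranged from 13.45 to 14.33 for Irgm1, against 14.00 to 14.94 in CON-LFD. For Irgm2 the lowest tumor was at 10.57 in DIO-HFD and 11.64 in CON-LFD, and the medians were 12.02 and 12.30 in the same order. Without DIO-HFD 3, the lowest tumor, the Irgm2 difference was -0.31.

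Batf2, a leucine zipper factor that in mouse macrophages acts with Irf1 after interferon gamma, had the widest range of the 10 genes over the 30 tumors, 4.84. It ran from 7.98 to 9.47 in DIO-CCR (median 9.19), from 7.45 to 10.44 in DIO-ICR (median 9.76), from 8.83 to 10.91 in DIO-VSG (median 9.43), from 6.29 to 9.19 in DIO-HFD (median 8.02) and from 9.39 to 11.13 in CON-LFD (median 10.04). All CON-LFD tumors lay above all DIO-HFD tumors, whereas each weight-loss group overlapped DIO-HFD. Batf2 fell by 2.22 ± 0.49 in DIO-HFD relative to CON-LFD (4.65-fold lower, limma adjusted p = 0.0219). That call was lost without DIO-HFD 3, 5 or 6 or CON-LFD 4 (adjusted p = 0.0597, 0.057, 0.0536 and 0.0713) and when the 3 tumors with lymph node RNA were left out (adjusted p = 0.0518).

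Irf1, the factor whose product binds the ISRE of many of these genes, ran from 12.00 to 12.64 in DIO-CCR (median 12.44), from 12.09 to 13.17 in DIO-ICR (median 12.87), from 12.22 to 13.16 in DIO-VSG (median 12.66), from 11.18 to 12.33 in DIO-HFD (median 12.13) and from 12.07 to 13.33 in CON-LFD (median 12.68). At least 4 of 6 tumors of each other group were above all DIO-HFD tumors. The difference of DIO-HFD from CON-LFD, -0.66 ± 0.21, did not pass (1.58-fold lower, limma adjusted p = 0.139).

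The 3 weight-loss groups were each compared with DIO-HFD to ask whether these genes stood away from the obese level after surgery or restriction. DIO-HFD mice alone stayed on the high-fat diet, so in these comparisons weight loss and the change of diet cannot be told apart. In every group all 10 were higher than in DIO-HFD by sign, and no member passed at an adjusted p under 0.05. These comparisons share the 6 DIO-HFD tumors with each other and with the comparison above, so a low value in DIO-HFD enters all of them.

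**Figure D2:**
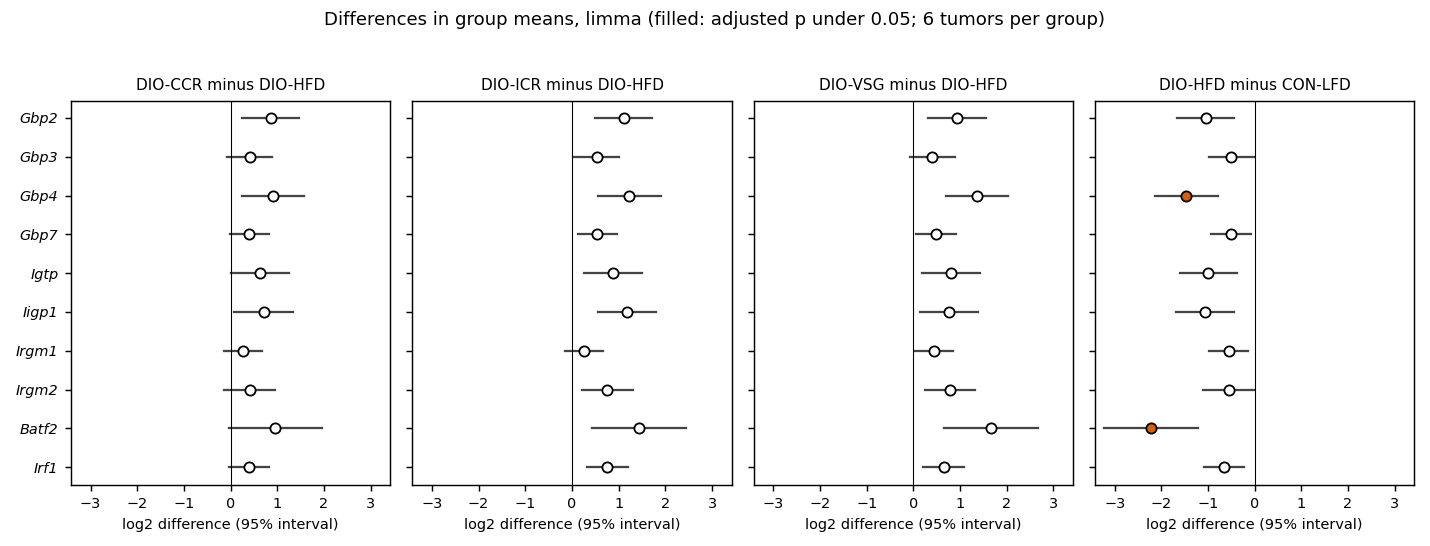
Difference in mean log2 level (points) with its 95% interval (lines) for each gene in 4 comparisons, 6 tumors per group. Filled points passed limma's test, namely Gbp4 and Batf2 in DIO-HFD minus CON-LFD, and every point lies to the right of 0 in the 3 comparisons of a weight-loss group with DIO-HFD.

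In DIO-CCR relative to DIO-HFD the members had a median difference of 0.52, against -0.02 over all genes. Differences ran from 0.27 for Irgm1 to 0.96 ± 0.49 for Batf2, and the lowest adjusted p was 0.215, that of Gbp2 at 0.85 ± 0.30. Without DIO-HFD 3 the median was 0.33, Irgm1 was at 0.17 and Batf2 at 0.62. By sign 10 of 10 were higher, where 46.4% of all genes were, and at an unadjusted p under 0.05 4 of 10 were higher (Gbp2, Gbp4, Igtp and Iigp1), where 4.8% of all genes were. Gbp2 was the 1 member whose groups did not overlap, as were 0.431% of genes with DIO-CCR above, and 0.118% of genes were higher at the adjusted level. Gbp4 reached 12.52 ± 0.47 in DIO-CCR and 11.61 ± 0.42 in DIO-HFD (SD), a difference of 0.91 ± 0.33 (SE, adjusted p = 0.227).

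DIO-ICR tumors stood further from DIO-HFD, with a median difference of 0.82 over the members and -0.03 over all genes. Iigp1 was highest relative to its error at 1.18 ± 0.30 (2.27-fold, adjusted p = 0.0717), followed by Gbp4 at 1.23 ± 0.33 (adjusted p = 0.085), Gbp2 at 1.11 ± 0.30 (adjusted p = 0.0952) and Irf1 at 0.76 ± 0.21 (adjusted p = 0.115). Batf2 differed by 1.43 ± 0.49 and Irgm1 by 0.25 ± 0.20 (0.16 without DIO-HFD 3). At an unadjusted p under 0.05 9 of 10 were higher, all but Irgm1, where 4.8% of all genes were, and by sign 44.2% of genes were higher. Tumors of Gbp2 and Gbp4 did not overlap between these groups, as for 0.543% of genes with DIO-ICR above, and 0.292% of genes were higher at the adjusted level. With array weights 3 members passed, Gbp2, Gbp4 and Iigp1 (adjusted p = 0.0478, 0.0416 and 0.0371), and without DIO-ICR 3, the lowest DIO-ICR tumor for 8 of 10 members, Gbp4, Iigp1 and Irf1 passed (adjusted p = 0.0457, 0.0277 and 0.037). Gbp2 also passed with these groups alone in the fit (adjusted p = 0.0313), without the 4 tumors with muscle RNA (adjusted p = 0.048) and without DIO-VSG 3 (adjusted p = 0.0496). With 1 tumor left out, Gbp2, Gbp4, Iigp1 and Irf1 each passed in 1 of 30 fits (adjusted p up to 0.241, 0.216, 0.186 and 0.291).

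DIO-VSG relative to DIO-HFD gave a median of 0.77 over the members and -0.05 over all genes. Gbp4 differed by 1.36 ± 0.33 (2.57-fold, adjusted p = 0.0848), Batf2 by 1.67 ± 0.49 (adjusted p = 0.187), Gbp2 by 0.94 ± 0.30 (adjusted p = 0.224) and Irf1 by 0.65 ± 0.21 (adjusted p = 0.236). Gbp3 had the smallest difference, 0.41 ± 0.24. Of the members 9 of 10, all but Gbp3, were higher at an unadjusted p under 0.05, where 3.9% of all genes were, and by sign 40.1% of genes were higher. Gbp2 and Gbp4 did not overlap between these groups, as for 0.385% of genes with DIO-VSG above, and 0.103% of genes were higher at the adjusted level. Without DIO-VSG 3, the highest DIO-VSG tumor for all 10 members, the Gbp3 difference was 0.23 and that of Gbp2 0.68, and without DIO-HFD 3 that of Gbp3 was 0.26.

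None of the members passed in the 6 comparisons of the weight-loss groups with CON-LFD or with each other. Of all genes, 0.415% passed in DIO-CCR, 1.57% in DIO-ICR and 0.0256% in DIO-VSG relative to CON-LFD, and 0.0513% in DIO-CCR relative to DIO-VSG, 0.0308% in DIO-ICR relative to DIO-VSG and 0% in DIO-CCR relative to DIO-ICR. In these 60 tests the lowest adjusted p was 0.294, and 1 member had an unadjusted p under 0.05, namely Batf2 in DIO-CCR relative to CON-LFD at -1.26 ± 0.49 (adjusted p = 0.294), where 4.87% of all genes were lower in DIO-CCR at that level. Intervals were wide, and over the 60 tests they reached as far down as -2.26 and as far up as 1.04, so equal levels were not shown. The next largest differences from CON-LFD were those of Batf2 in DIO-ICR, at -0.79, of Gbp4 in DIO-CCR, at -0.55, and of Batf2 in DIO-VSG, at -0.55. Between the restriction groups, the difference of DIO-CCR from DIO-ICR was -0.48 for Iigp1 and 0.02 for Irgm1.

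The members varied together from tumor to tumor inside the groups. With group means removed, the 45 pairs of members had a Pearson r between 0.70 (Gbp2 and Batf2) and 0.93 (Igtp and Irgm2) and a median of 0.85 over 30 tumors, whose arrays were normalized together. These r are a description and carry no test. DIO-HFD 3 was the lowest of all 30 tumors in 10 of 10 members, and the highest was DIO-VSG 3 in 5, CON-LFD 6 in 4 and CON-LFD 4 in 1. Inside CON-LFD, tumors 2, 4 and 6 lay above tumors 1, 3 and 5 in all 10 members, and inside DIO-ICR, tumors 1, 2, 4 and 6 lay above tumors 3 and 5 in all 10. DIO-CCR tumors were the most alike, with the smallest SD of the 5 groups in 8 of 10 members.

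**Figure D3:**
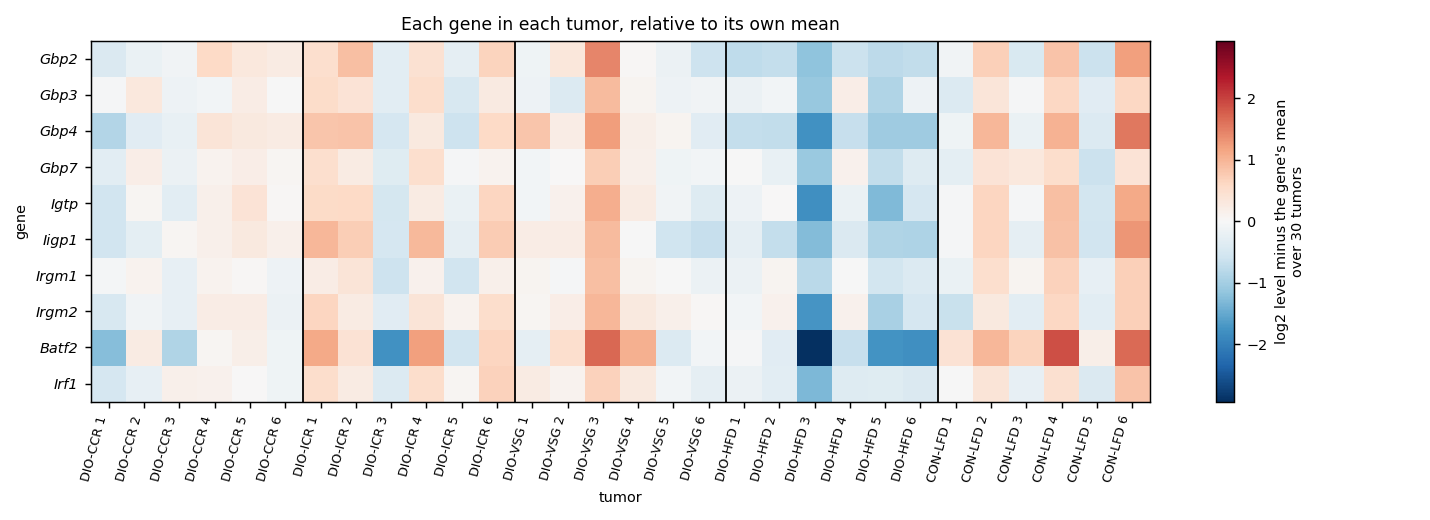
Each of the 10 genes (rows) in each of the 30 tumors (columns, ordered by group), colored by the log2 level minus the mean of that gene over all tumors. Shades in a column are mostly alike, DIO-HFD 3 is the lowest tumor in all 10 rows and DIO-VSG 3 the highest in 5.

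In DIO-HFD 3 the mean log2 level of 7 neutrophil genes was 1.63 below that of the median array, of 7 T cell genes 1.30 below and of 7 natural killer genes 0.84 below, and that of 9 macrophage genes was 0.14 below. In DIO-VSG 3 neutrophil genes were 1.39 above the median array, natural killer genes 0.32 above and muscle genes 2.69 above. Relative to that array, adipocyte genes were at -2.19 in DIO-HFD 3 and -2.59 in DIO-VSG 3. Other tumors reached similar values. Neutrophil genes were at -1.94 in DIO-HFD 5, 1.49 in DIO-VSG 2 and 1.31 in DIO-VSG 1, and natural killer genes at -0.85 in CON-LFD 3. The part of these cells in the member levels was not tested.

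Interferon gamma itself had group medians below the array medians, which were between 6.41 and 6.79. Ifng was between 4.90 and 6.11 in DIO-CCR (median 5.19), 5.63 and 7.01 in DIO-ICR (median 6.22), 5.01 and 6.26 in DIO-VSG (median 5.28), 4.67 and 5.48 in DIO-HFD (median 5.06) and 4.76 and 7.06 in CON-LFD (median 5.27). All DIO-ICR tumors lay above all DIO-HFD tumors, and the difference of 1.20 ± 0.31 did not pass (adjusted p = 0.0771). It passed with these groups alone in the fit (adjusted p = 0.0371), with array weights (adjusted p = 0.0494), without DIO-ICR 3 (adjusted p = 0.0457) and without CON-LFD 6 (adjusted p = 0.0366). With 1 tumor left out it passed in 2 of 30 fits (adjusted p up to 0.236). Relative to DIO-HFD the Ifng difference was 0.27 in DIO-CCR (0.11 without DIO-CCR 6) and 0.35 in DIO-VSG (0.17 without DIO-VSG 3). It was -0.59 ± 0.31 in DIO-HFD relative to CON-LFD (adjusted p = 0.464), and -0.31 without CON-LFD 6. Ifng was then correlated with each member. Over 30 tumors with group means removed, Pearson's r of Ifng with a member was between 0.29 (Batf2) and 0.59 (Gbp2), and 6 of 10 relations passed a permutation test within groups with 100000 resamples (adjusted p over the 10 from 0.0297 to 0.149). For Gbp2 the unadjusted p was 0.00587 and for Batf2 0.117. Spearman's rho was between 0.22 and 0.48 and 0 of 10 passed by it. Without CON-LFD 6 and DIO-ICR 6, the tumors farthest from the median of Ifng, r was between 0.20 and 0.47.

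No receptor chain or kinase gene passed. Ifngr1 averaged 12.15 ± 0.25 in DIO-HFD and 12.15 ± 0.14 in CON-LFD (SD), a difference of -0.01 ± 0.16 (SE). Ifngr2, the signaling chain, was at -0.17 ± 0.11 (-0.11 without CON-LFD 3) and Jak2 at -0.46 ± 0.16 in DIO-HFD relative to CON-LFD. Of the 5 measured genes of ligand, receptor and kinases, 0 passed in any comparison with DIO-HFD. Their median was -0.17 in DIO-HFD relative to CON-LFD. Relative to DIO-HFD it was 0.27 in DIO-CCR, 0.36 in DIO-ICR and 0.35 in DIO-VSG. The feedback genes, 5 of 5 measured and among them Socs3 and Ptpn2, and the 8 measured cofactors, among them Irf8 and Batf3, also had 0 calls, with medians of -0.05 and -0.18 in DIO-HFD relative to CON-LFD. Relative to DIO-HFD, in DIO-CCR, DIO-ICR and DIO-VSG, the medians were 0.09, 0.195 and 0.06 for feedback genes and 0.055, 0.16 and 0.26 for cofactors. Of 6 measured genes that drive interferon gamma production 0 passed, the nearest being the cytokine Il18 at -0.70 ± 0.19 in DIO-HFD relative to CON-LFD (adjusted p = 0.0643).

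**Figure D4:**
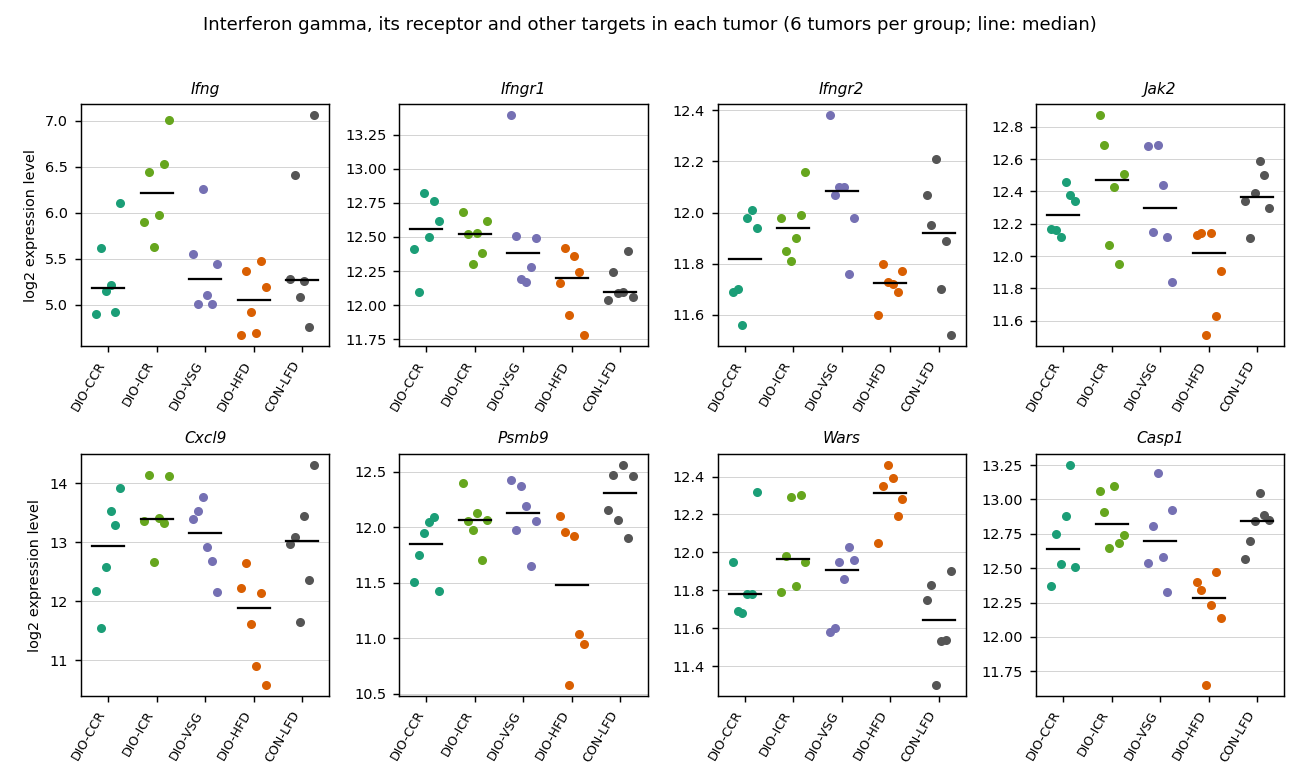
Log2 expression level of interferon gamma (Ifng), its receptor chains, Jak2 and 4 other genes, in every tumor, with 6 points per group and the group median as a line (vertical axes differ). All DIO-HFD values of Wars lie above all CON-LFD values, and all DIO-HFD values of Casp1 lie below them.

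Of 12 further GTPase genes that were listed, 5 were measured (Gbp8, Gbp9, Tgtp2, Gvin1 and Irgc1) and 0 passed. By sign 4 of the 5 were lower in DIO-HFD than in CON-LFD, where 42.7% of all genes were, and the 5 had a median difference of -0.87. Relative to DIO-HFD it was 0.69 in DIO-CCR, 0.98 in DIO-ICR and 0.91 in DIO-VSG. Gbp8 came closest to a call, at 10.47 ± 0.65 in DIO-ICR and 8.85 ± 0.35 in DIO-HFD (SD), a difference of 1.62 ± 0.39 (SE, adjusted p = 0.0506). It passed after quantile normalization (adjusted p = 0.0464), without the 30% dimmest genes (adjusted p = 0.0376), with these groups alone in the fit (adjusted p = 0.0256), with array weights (adjusted p = 0.0221) and in 7 of 30 fits with 1 tumor left out.

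Interferon gamma targets that are not GTPases had a median of -0.38 over 15 measured genes in DIO-HFD relative to CON-LFD, with 13 lower by sign, where 42.7% of all genes were. Psmb9, a subunit of the immunoproteasome, fell by 0.84 ± 0.21 (adjusted p = 0.0416). Wars, the tryptophanyl-tRNA synthetase, rose by 0.65 ± 0.13 (adjusted p = 0.00854), against the direction of the members, with all DIO-HFD tumors above all CON-LFD tumors. The chemokine Cxcl9, which draws T and natural killer cells, averaged 13.51 ± 0.56 in DIO-ICR and 11.69 ± 0.81 in DIO-HFD (SD) and rose by 1.82 ± 0.42 (adjusted p = 0.0432). Casp1, the inflammasome protease, fell by 0.61 ± 0.15 in DIO-HFD relative to CON-LFD (adjusted p = 0.0447) and rose by 0.65 ± 0.15 in DIO-ICR relative to DIO-HFD (adjusted p = 0.0469), and was the 1 gene called among 11 genes of autophagy and the inflammasome that work with the GTPases. With 1 tumor left out in turn, Psmb9 passed in 20 of 30 fits, Cxcl9 in 19, Casp1 in 15 and in DIO-ICR relative to DIO-HFD in 10, and Wars in 30 (adjusted p from 0.00439 to 0.0341).

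Genes of the type I interferon response, which share the ISRE, were followed as a second list. Of 20 measured, 0 passed in any comparison with DIO-HFD, and the median in DIO-HFD relative to CON-LFD was 0.04, as for all genes. Mx1, an antiviral GTPase of another family, averaged 11.24 ± 0.52 in DIO-HFD and 11.19 ± 0.37 in CON-LFD (SD). Relative to DIO-HFD the list had a median of 0.18 in DIO-CCR, 0.07 in DIO-ICR and 0.17 in DIO-VSG. By sign 19, 10 and 18 of the 20 genes were higher, where 46.4%, 44.2% and 40.1% of all genes were.

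Over all 30 tumors the genes whose pattern was most like the mean standardized level of the members, by Pearson's r, were the checkpoint ligand gene Cd274 (0.89), the nucleic acid sensor gene Zbp1 (0.89), Gvin1 (0.88), Gbp9 (0.87) and Tgtp2 (0.87), all of them genes that interferon gamma induces. The mean of Cd274 for DIO-CCR was 12.32 ± 0.46, for DIO-ICR 12.55 ± 0.44, for DIO-VSG 12.54 ± 0.46, for DIO-HFD 11.72 ± 0.39 and for CON-LFD 12.46 ± 0.49 (SD). It differed by -0.74 ± 0.25 in DIO-HFD relative to CON-LFD (adjusted p = 0.158). Gm12250, an immunity-related GTPase that RefSeq also lists as Irgb10, had the highest r of all (0.92). It was outside the list of GTPases and the naming rule and was named after its value was seen. These values describe likeness and carry no test.

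Genes of natural killer cells, a source of interferon gamma, were also higher than in DIO-HFD, by sign 7 of 7 in each weight-loss group (median difference 1.23 in DIO-CCR, 1.59 in DIO-ICR and 0.51 in DIO-VSG). By sign 46.4%, 44.2% and 40.1% of all genes were higher in the same order of groups. Relative to DIO-HFD, 4 of 7 natural killer genes rose in DIO-ICR (Ncr1, Klrk1, Klrd1 and Gzmb), 3 of 7 in DIO-CCR (Ncr1, Klrk1 and Gzmb) and 0 of 7 in DIO-VSG. Of all genes, 0.292%, 0.118% and 0.103% rose in the same order. The mean log2 level of the natural killer genes ran from 6.63 to 7.98 in DIO-CCR, from 7.45 to 8.37 in DIO-ICR, from 6.30 to 7.31 in DIO-VSG, from 6.15 to 6.55 in DIO-HFD and from 6.14 to 7.30 in CON-LFD, so that DIO-CCR and DIO-ICR lay wholly above DIO-HFD. Of 7 T cell genes none passed. By sign 6 of 7 were higher than in DIO-HFD in DIO-CCR, 7 of 7 in DIO-ICR and 7 of 7 in DIO-VSG. Their median difference was 0.58, 1.19 and 1.24 in the same order. The mean of the T cell genes ran from 6.29 to 7.56 in DIO-CCR, from 7.12 to 8.21 in DIO-ICR, from 6.55 to 10.16 in DIO-VSG, from 5.58 to 7.55 in DIO-HFD and from 6.20 to 7.35 in CON-LFD. The highest of these was DIO-VSG 1 and the highest of DIO-HFD was DIO-HFD 5, both among the tumors with high lymph node genes. The next highest DIO-HFD tumor was DIO-HFD 1 at 6.65, below the lowest DIO-ICR tumor.

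Of 7 neutrophil genes 5 fell in DIO-HFD relative to CON-LFD (S100a8, S100a9, Retnlg, Mmp8 and Il1r2), as did 0.41% of all genes. S100a9 and Retnlg rose in DIO-VSG against DIO-HFD, as did 0.103% of all genes. None of the 7 passed in DIO-CCR or DIO-ICR against DIO-HFD (median difference 0.72 and -0.04). In DIO-ICR relative to CON-LFD 4 of 7 fell (S100a9, Retnlg, Cxcr2 and Mmp8), as did 0.738% of all genes. In that comparison 5 of 9 macrophage, 1 of 7 natural killer and 2 of 7 adipocyte genes rose, as did 0.836% of all genes. The neutrophil mean was at least 8.23 in DIO-VSG, and ran from 5.57 to 7.52 in DIO-HFD and from 7.21 to 10.83 in CON-LFD tumors. Ccr2, a receptor of inflammatory monocytes, rose in DIO-ICR and DIO-VSG relative to DIO-HFD, alone among 9 macrophage and monocyte genes, whose mean ran from 12.02 to 13.07 in DIO-HFD and from 11.52 to 12.48 in CON-LFD. Adipocyte genes were higher than in DIO-HFD by sign for 7 of 7 in DIO-CCR (median difference 1.60) and in DIO-ICR (median difference 1.69), where 46.4% and 44.2% of all genes were. Pparg, the regulator of fat cell formation, rose in DIO-ICR (adjusted p = 0.0446). Over 30 tumors with group means removed, Pearson's r with the mean standardized level of the members was 0.56 for natural killer, 0.26 for macrophage, 0.13 for T cell, 0.11 for neutrophil and -0.10 for adipocyte genes. The other marker lists ran from -0.25 (fibroblast) to 0.17 (dendritic cell). These r come from the same arrays as the members and carry no test.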

How the data were processed

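The authors extracted RNA from frozen tumors, hybridized it to Mouse Clariom S arrays and deposited log2 expression levels made by signal space transformation and robust multichip averaging in the Transcriptome Analysis Console. The 22206 probe sets were used as deposited, with 0 missing values. The platform's probe table gave 19572 of them 1 gene symbol, 0 several and 2634 none. The brightest probe set was kept for 55 symbols with several, which left 19505 genes. Of 172 listed genes, 21 were not analysed here. Arrays have no read depth, so their number limits the precision. No source used here states which genome build the array was designed on.

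Group means were fitted over 30 arrays with limma 3.58.1 in R 4.3.3 (25 residual degrees of freedom, empirical Bayes). All 10 comparisons and an F-test were made, two-sided, adjusted by Benjamini and Hochberg over all genes, with a threshold of 0.05. Whether tumors were processed in batches is not given. The fit was tested on simulated data. Members and lists were chosen with earlier results of these data known. Genes named beside the members were Ifng and its receptor chains, up to 4 genes that passed in a comparison for each list or else the 2 with the smallest p by the F-test, and the 5 most like the members, gene models without a proper name being passed over. Marker genes are named where they passed in a comparison with DIO-HFD or, for neutrophil genes, of DIO-ICR with CON-LFD. Irgc1 and Jak1 are named as members of the pathway. Alternative fits used array weights, trend and robust empirical Bayes, only the groups compared, every probe set, genes without the 30% dimmest, values centred on the array median or quantile-normalized, or left out each tumor in turn. After seeing the data, fits without tumors that held lymph node or muscle genes were added.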

Additional observations from a re-analysis of the deposited data

Results flagged for a closer look

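In 7 of 50 sets of 6 values, each a member in a group, the lowest or highest tumor stood apart from the other 5 by Dixon's criterion, which chance meets in about 1 of 20 groups. DIO-HFD 3 was the low tumor for Gbp2 (12.19, the next being 12.59), Gbp4 (10.83, the next being 11.56) and Irf1 (11.18, the next being 12.07). DIO-VSG 3 was the high tumor for Gbp3 (14.2, the next being 13.35), Gbp7 (14.89, the next being 14.33), Irgm1 (15.13, the next being 14.31) and Irgm2 (13.27, the next being 12.59). The members follow each other from tumor to tumor, so these are 2 tumors rather than 7 separate events. Without DIO-HFD 3, 0 of 10 members passed in DIO-HFD relative to CON-LFD, where 2 passed with it, and the Gbp4 and Batf2 differences were -1.31 and -1.88.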

How the results depend on the processing

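No difference of a member between DIO-HFD and another group changed sign under the 39 alternatives, and in DIO-CCR and DIO-VSG relative to DIO-HFD no member passed under any. In DIO-HFD relative to CON-LFD, 2 members passed, against 1 with only these groups in the fit, 4 with array weights, 0 without the 3 tumors with lymph node RNA, 4 without the 4 with muscle RNA, and 0 (without DIO-HFD 3 or CON-LFD 4) to 4 (without CON-LFD 5) with 1 tumor left out. In DIO-ICR relative to DIO-HFD, 0 passed, against 1 with only these groups, 3 with array weights, 1 without the muscle tumors and 0 to 3 with 1 tumor left out. By the F-test 1 passed, against 0 with median centring, 0 with trend and robust empirical Bayes, 2 with array weights, 0 without either set of tumors and 0 to 2 with 1 tumor left out.

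Differences near 0 changed sign. In DIO-HFD relative to CON-LFD, Ifngr1 was 0.042 and Mx1 -0.017 without the muscle tumors. With 1 tumor left out, Ifngr1 ran from -0.061 to 0.067, Ptpn2 from -0.11 to 0.018, Mx1 from -0.064 to 0.20, Ifih1 from -0.19 to 0.0093 and Il27 from -0.044 to 0.33, and Ptpn2 in DIO-VSG relative to DIO-HFD from -0.004 to 0.11. The relation of Ifng to the members passed for 3 of 10 after quantile normalization and for 10 of 10 with group means kept.

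The count of all genes that passed, 194 in DIO-HFD relative to CON-LFD, was 374 with array weights, and from 67 to 241 with 1 tumor left out. In DIO-CCR, DIO-ICR and DIO-VSG relative to DIO-HFD it was 69, 90 and 30, with ranges from 5 to 102, from 10 to 182 and from 4 to 47. The causes were not tested, and marker genes were not refitted. Replicate numbers only name the tumors, and no paired analysis was possible because the labels give none that pair groups.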
